A study of Mus musculus with 8 samples.

Results

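The transcripts described here encode 10 transcription factors of the mesenchyme, the embryonic tissue that gives rise to tendon, fascia, fat and the connective tissue cells of muscle. The genes were taken by symbol (Twist1, Twist2, Meox1, Meox2, Prrx1, Prrx2, Osr2, Ebf1, Ebf2 and Ebf3), and all 10 were present among the 18877 genes of the table. They were compared between activated muscle stem cells (ASCs) of wild-type and of mfn2-/- mice, the descendants of quiescent muscle stem cells that enter the cell cycle after injury. All mice carried a mitochondrial Dendra2 reporter switched on by the tamoxifen-inducible Pax7-Cre(ERT2) driver, and the mfn2-/- mice also carried a floxed allele of Mfn2, which encodes a fusion protein of the outer mitochondrial membrane. Tamoxifen (75 mg/kg) was given once a day in 5 doses to both groups, and the tibialis anterior muscle was injured with 50 uL of 1.2% BaCl2. At 2 days after injury, living CD34-, Dendra2+ cells were sorted and their total RNA was sequenced, with 4 libraries per group. The driver limits deletion to cells in which Pax7-Cre(ERT2) was active, so other cell types of the muscle keep Mfn2, and age was not given in the labels.

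TWIST proteins are basic helix-loop-helix factors that pair with E proteins and hold mesenchymal cells undifferentiated, and they can block the activity of the myogenic factor MyoD. MEOX and PRRX proteins are homeodomain factors, the first of the somite and the second of the limb mesenchyme. OSR2 is a zinc finger factor of the odd-skipped family, known from palate and joint development. EBF factors direct B lymphocyte and adipocyte fates as well as stromal fates. In adult muscle, such genes are read mainly as identity genes of connective tissue cells that lie between the fibers, whereas muscle stem cells are defined by Pax7, Myf5 and Myod1.

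The libraries held 1880464 to 7508215 reads assigned to genes, and 1 read was worth 0.534 to 2.27 normalized reads. The mfn2-/- replicate 4 detected 9646 genes, against 12613 to 15270 in the other libraries. Reads from Y-linked genes were found in replicates 3 and 4 of the wild-type group, in replicates 1 and 2 of the mfn2-/- group and in no other library, so each group held 2 libraries of either kind, called Y-positive and Y-negative below. The targeted gene Mfn2 averaged 229 ± 20.0 normalized reads in wild-type ASCs against 126 ± 31.4 in mfn2-/- ASCs (SD, n = 4), a log2 change of -0.88 (limma adjusted p 0.0848) with no overlap between the groups. Markers of muscle stem cells were present in both groups, and Pax7 gave 662 and 715 normalized reads on average. Whether the libraries came from separate mice is not stated, so p-values measure the spread between these libraries. Read counts carry no molecular identifiers, and floors given below cover counting error only.

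Of the 10 factors, 7 were lower in mfn2-/- ASCs by limma at an adjusted p under 0.05 and 0 were higher, where 6.36% of the 11754 genes tested were called lower, 3.99% higher and 10.4% in either direction. With edgeR 6 and with DESeq2 8 of the 10 were called lower, where 5.59% and 9.27% of all genes were. The 10 factors were chosen with earlier results of these data known. Their counts beside the shares over all genes are therefore descriptions and no test of an excess. The limma count was 4 when either wild-type replicate 3 or wild-type replicate 4 was left out, and 8 when mfn2-/- replicate 4 was. Twist1, Twist2, Meox1, Meox2, Prrx1, Ebf1 and Ebf2 fell, with log2 changes from -5.43 for Meox1 to -1.58 for Prrx1. Osr2 and Prrx2 measured less in every mfn2-/- library than in any wild-type library but did not pass the threshold. Ebf3 was the exception, at 325 ± 71.0 normalized reads in wild-type cells against 355 ± 104 in mfn2-/- cells. In all, 9 of the 10 factors had no overlap between the groups in the lower direction, where 12.2% of all genes tested did, and 0 in the higher direction, where 7.36% did. The median log2 change was -4.07 for the 10 factors and -0.16 for all genes tested. All 10 reached the minimum mean of 10 normalized reads, but 5 of them averaged under 10 in mfn2-/- cells and reached it only through the wild-type libraries.

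**Figure D1:**
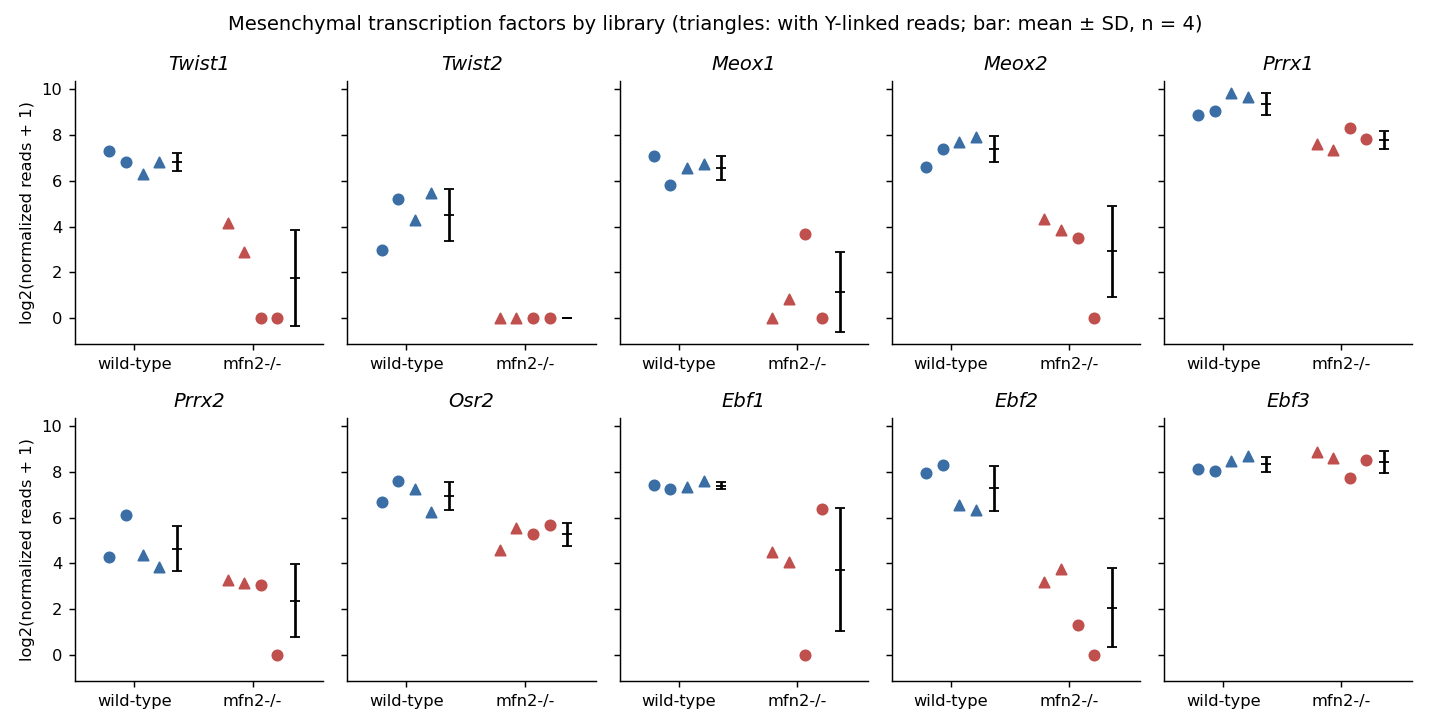
Each panel plots 1 transcription factor, with log2(normalized reads + 1) on the vertical axis for the 4 wild-type (blue) and 4 mfn2-/- (red) libraries, replicates 1 to 4 from left to right. Triangles are libraries with Y-linked reads, circles those without, and black bars give the mean and SD. Red points lie below all blue points in 9 panels, and in the Ebf3 panel the groups overlap.

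Start sites of 7 factors were listed by RefSeq (GRCm38.p6), and for 4 of them the 250 bases before the listed start end directly at the start of the GENCODE M21 gene. These 4 windows are shown for that position, and those listed for Prrx1, Prrx2 and Ebf1, which do not end there, are left out. Of the 4, 3 belong to factors that fell to few or no reads and the 4th to Ebf3, which did not fall. They are written 5′ to 3′ along the gene. Capitals mark matches, on either strand, to the E-box CANNTG, the hypoxia-response cores ACGTG and GCGTG, the CCAAT box, TATAAA, the homeodomain core TAATTA and the EBF palindrome, and no match overlapped another.
Twist1, chr12:33957421-33957670, plus strand: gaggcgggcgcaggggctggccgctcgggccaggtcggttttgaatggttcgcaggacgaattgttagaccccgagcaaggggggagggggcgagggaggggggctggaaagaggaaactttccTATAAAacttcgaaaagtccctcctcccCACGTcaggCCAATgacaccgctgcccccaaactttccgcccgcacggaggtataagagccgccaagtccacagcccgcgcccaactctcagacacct
Twist2, chr1:91801211-91801460, plus strand: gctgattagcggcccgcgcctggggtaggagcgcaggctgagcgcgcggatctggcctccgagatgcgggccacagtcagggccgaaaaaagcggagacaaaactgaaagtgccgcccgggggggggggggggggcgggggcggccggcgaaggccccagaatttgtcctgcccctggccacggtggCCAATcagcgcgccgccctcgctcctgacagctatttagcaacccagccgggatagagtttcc
Meox2, chr12:37108290-37108539, plus strand: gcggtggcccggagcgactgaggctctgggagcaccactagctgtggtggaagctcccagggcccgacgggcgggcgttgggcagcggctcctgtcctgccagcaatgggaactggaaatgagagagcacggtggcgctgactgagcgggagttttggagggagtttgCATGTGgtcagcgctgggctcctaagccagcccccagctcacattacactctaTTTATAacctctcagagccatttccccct
Ebf3, chr7:137314446-137314695, minus strand: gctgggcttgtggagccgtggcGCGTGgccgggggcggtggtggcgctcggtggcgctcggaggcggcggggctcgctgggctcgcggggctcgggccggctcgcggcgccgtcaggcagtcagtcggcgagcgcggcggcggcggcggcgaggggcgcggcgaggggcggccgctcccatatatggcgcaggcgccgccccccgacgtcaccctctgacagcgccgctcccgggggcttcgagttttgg

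The Ebf3 window was 80.0% G and C with 43 CpG pairs. The Twist2, Twist1 and Meox2 windows were 68.8%, 62.4% and 62.0% G and C, with 23, 18 and 12 CpG pairs, and the median of 32851 mouse windows of this length was 52.4%. A CCAAT box lay in both Twist windows, 89 bases before the start of Twist1 and 63 before that of Twist2, and 33.8% of all windows hold one. The ACGTG core, read here as its reverse CACGT, was in the Twist1 window, where 16.6% of all windows hold it, and TATAAA was also there. The Meox2 window held TATAAA as its reverse TTTATA, 29 bases before the start, and 12.4% of all windows hold it on either strand. The Ebf3 window held the GCGTG core (28.2% of all windows) and the Meox2 window an E-box (66.2%). The homeodomain core (4.84%) and the EBF palindrome (0.779%) were in none of the 4 windows. These matches describe letters in the windows, and no binding was measured.

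Twist1 (GENCODE M21 annotation of GRCm38, chromosome 12, 33957671 to 33959829, plus strand) was the more abundant of the pair of TWIST genes. It gave 159, 111, 78.4 and 114 normalized reads in wild-type replicates 1 to 4 and 16.7, 6.32, 0 and 0 in mfn2-/- replicates 1 to 4. All mfn2-/- libraries lay far below the lowest wild-type library, and 2 of them had no read. The mean went from 116 ± 33.2 to 5.75 ± 7.87 normalized reads, a 20.1-fold lower level (log2 change -5.07, SE 1.13, limma adjusted p 0.0124). It was -5.86 without mfn2-/- replicate 1, -4.48 without replicate 3 or 4 of that group, -3.08 with a pseudocount of 10 and -6.78 with 0.1. Among Y-positive libraries the change was -3.07, and among Y-negative ones -7.07. Twist2 (chromosome 1, 91801461 to 91848028, plus strand) was weak in wild-type cells, with 6.82, 36.3, 18.8 and 43.3 normalized reads, the first of these from 3 reads. It had 0 reads in every mfn2-/- library. Against a floor of 3 reads per mfn2-/- library, Twist2 was at least 8.71-fold lower (limma adjusted p 0.0202). The Twist2 call did not hold without wild-type replicate 3 (adjusted p 0.0531) or 4 (0.0632) or without mfn2-/- replicate 1, 2 or 3 (0.0608, 0.0608 and 0.0580).

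Both MEOX genes were clear in wild-type cells and low in mfn2-/- cells. Meox1 (chromosome 11, 101877510 to 101894374, minus strand) gave 136, 56.0, 93.9 and 105 normalized reads in the wild-type replicates 1 to 4, against 0, 0.790, 11.8 and 0 in the mfn2-/- replicates. The only mfn2-/- library with more than 3 reads was replicate 3, with 16. The mean was 31.1-fold lower, from 97.8 ± 33.2 to 3.15 ± 5.78 (log2 change -5.43, SE 1.12, limma adjusted p 0.00817). Meox2 (chromosome 12, 37108540 to 37179534, plus strand), which takes part in limb muscle development, gave 95.5, 167, 203 and 239.9 normalized reads in the wild-type replicates 1 to 4, against 19.3, 13.4, 10.3 and 0 in the mfn2-/- replicates. Its mean was 16.4-fold lower (log2 change -4.47, SE 0.98, limma adjusted p 0.0113), and the groups were far apart. The Meox2 call did not hold without wild-type replicate 3 (adjusted p 0.0510) or 4 (0.0529). Without mfn2-/- replicate 3 the Meox1 change was -6.28, and without mfn2-/- replicate 4 the Meox2 change was -3.49. A pseudocount of 10 gave -3.06 and -3.20, and one of 0.1 gave -7.35 and -5.36. Meox1 changed by -6.23 and Meox2 by -3.69 among Y-positive libraries, and by -4.63 and -5.24 among Y-negative ones.

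Prrx1 (chromosome 1, 163245119 to 163313710, minus strand), a homeobox gene of limb mesenchyme, had the most normalized reads of the 10 factors in wild-type cells and the smallest change among the 7 that fell. It gave 464, 535, 913 and 805 normalized reads in the wild-type replicates 1 to 4, against 193, 164, 312 and 225 in the mfn2-/- replicates. The groups did not overlap, yet every mfn2-/- library kept more than 100 reads. The mean was 3.04-fold lower, from 679 ± 214 to 224 ± 64.3 (log2 change -1.58, SE 0.29, limma adjusted p 0.00344), and the call held without any single library (adjusted p 0.00349 to 0.0179). For Prrx1 the Y-positive libraries gave -2.26 and the Y-negative ones -0.91. Its relative Prrx2 (chromosome 2, 30834972 to 30881251, plus strand) was weak, with 18.2, 67.4, 19.6 and 13.4 normalized reads in the wild-type replicates 1 to 4, against 8.67, 7.90, 7.37 and 0 in the mfn2-/- replicates. Wild-type replicate 2 alone was high, and the highest mfn2-/- library lay just under the lowest wild-type library. Prrx2 did not pass the threshold (log2 change -2.27, 95% interval -4.78 to 0.24, limma adjusted p 0.251).

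Osr2 (chromosome 15, 35296098 to 35303305, plus strand) gave 100.1, 192, 153 and 74.8 normalized reads in the wild-type replicates 1 to 4, against 22.7, 45.0, 38.3 and 49.5 in the mfn2-/- replicates. Unlike the TWIST and MEOX genes, it had 27 reads or more in every mfn2-/- library. The groups did not overlap, and the mean was 130 ± 52.6 in the wild-type group against 38.9 ± 11.7 in the mfn2-/- group. Its log2 difference of -1.68 (95% interval -2.85 to -0.51) did not pass over all genes (limma adjusted p 0.0689). It passed without mfn2-/- replicate 4 (-1.81, adjusted p 0.0384) and with DESeq2 on the recovered reads (-1.75, adjusted p 0.00755). The Osr2 difference was -1.71 among Y-positive and -1.65 among Y-negative libraries.

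Among the EBF factors, Ebf1 and Ebf2 were called lower and Ebf3 was not. Ebf1 (chromosome 11, 44617317 to 45008091, plus strand), a factor of B lymphocytes and adipocytes, was the least variable of the 10 in wild-type cells, with 171, 149, 158 and 194 normalized reads. It gave 21.3, 15.8, 0 and 80.6 in mfn2-/- replicates 1 to 4, where replicate 4 stood above the others. The mean was 5.71-fold lower (log2 change -3.67, SE 1.08, limma adjusted p 0.0469). The Ebf1 call was close to the threshold and was lost without any 1 wild-type library (adjusted p 0.0975 to 0.118) or without mfn2-/- replicate 1 (0.0630) or 2 (0.0767), and the change was -2.43 without replicate 3 and -4.54 without replicate 4 of that group, -2.58 with edgeR and -2.54 with DESeq2. Ebf2 (chromosome 14, 67233292 to 67430918, plus strand), known for its part in brown fat, gave 246, 312, 91.5 and 78.5 normalized reads in the wild-type replicates 1 to 4, against 8.0, 12.6, 1.47 and 0 in the mfn2-/- replicates. Its wild-type values formed a higher Y-negative pair and a lower Y-positive pair, and all lay above every mfn2-/- library. The mean was 32.9-fold lower, from 182 ± 115 to 5.53 ± 5.88 (log2 change -5.21, SE 1.04, limma adjusted p 0.00674), with -2.95 among Y-positive and -7.47 among Y-negative libraries. The Ebf2 change was -4.52 without mfn2-/- replicate 4, -3.49 with a pseudocount of 10 and -6.25 with 0.1.

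Ebf3 (chromosome 7, 137193673 to 137314445, minus strand), which is also known to act with MyoD in muscle, gave 275, 257, 359 and 408 normalized reads in the wild-type replicates 1 to 4, against 460.1, 387, 212 and 359 in the mfn2-/- replicates. The groups overlapped fully, with the highest and the lowest of the 8 values both in mfn2-/- libraries. The log2 change was 0.10 (95% interval -0.52 to 0.71, limma adjusted p 0.865), and its sign turned when wild-type replicate 2 (-0.01) or mfn2-/- replicate 1 (-0.05) was left out. Y-positive libraries gave 0.14 and Y-negative ones 0.05. Ebf3 rested on 1572 reads in all in wild-type and 1664 in mfn2-/- libraries.

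**Figure D2:**
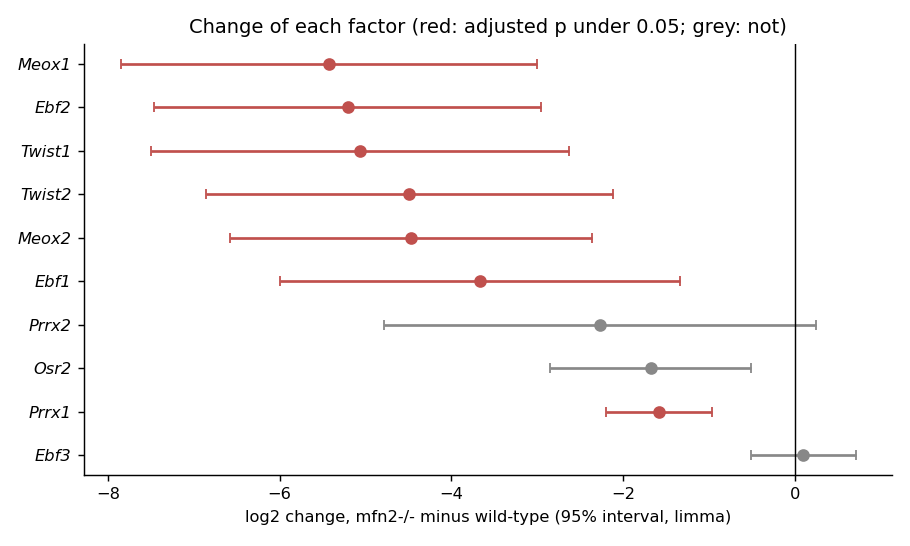
Points give the limma log2 change of each factor (mfn2-/- minus wild-type) and bars its 95% interval, sorted from the most negative at the top. Red marks an adjusted p under 0.05 and grey one above it, and the bars of Prrx2 and Ebf3 cross 0.

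Whether relatives changed unequally was tested on the log2 ratio of 2 relatives in each library, with two-sided exact permutation tests over 6 pairs. The Ebf1 to Ebf3 ratio went from -0.93 ± 0.23 in wild-type to -4.69 ± 2.30 in mfn2-/- libraries, and the Ebf2 to Ebf3 ratio from -1.05 ± 1.3 to -6.36 ± 1.57 (SD, n = 4). Neither ratio overlapped between the groups, and each gave exact p = 0.0286, the smallest that 4 against 4 libraries allow, or 0.0857 adjusted over the 6 pairs. The first difference, -3.77, was -2.75 without mfn2-/- replicate 3 and -4.62 without replicate 4, and the second, -5.31, was -4.59 without replicate 4. With a pseudocount of 10 they were -2.70 and -3.58. The ratios of Twist1 to Twist2, Meox1 to Meox2, Prrx1 to Prrx2 and Ebf1 to Ebf2 differed by -0.58, -0.96, 0.68 and 1.54 between the groups (exact permutation p from 0.400 to 0.600). These 4 differences lay within the spread between libraries. Per kilobase of annotated exon, Ebf3 made up 36.04%, 31.6%, 56.9% and 58.6% of the summed Ebf1, Ebf2 and Ebf3 transcripts in wild-type replicates 1 to 4. The Ebf3 share was 93.7%, 92.4%, 99.1% and 82.5% in mfn2-/- replicates 1 to 4, above every wild-type library. Ebf4, which is not in these shares, averaged 14.0 and 11.1 normalized reads in wild-type and mfn2-/- libraries and was not called (limma adjusted p 0.943).

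**Figure D3:**
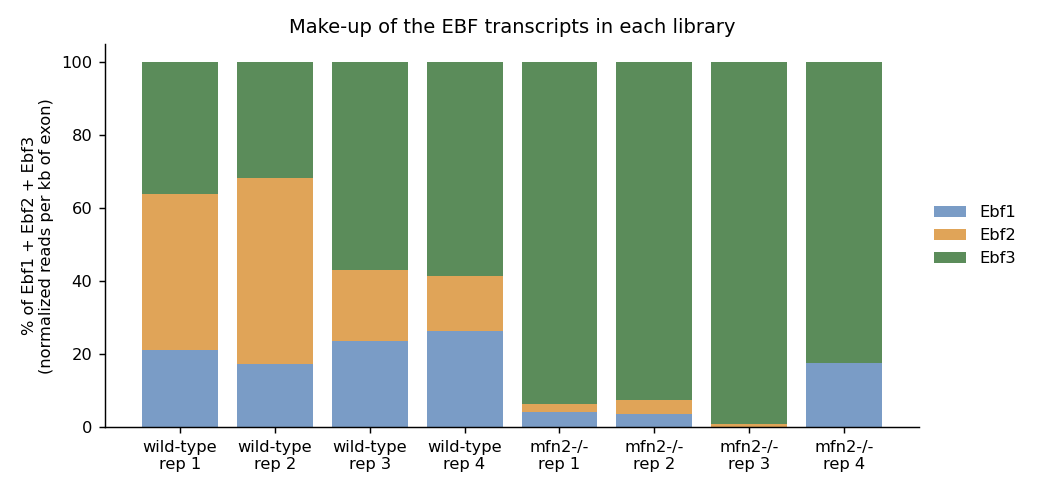
Stacked bars give, for each of the 8 libraries, the percent that Ebf1, Ebf2 and Ebf3 made up of their own sum (normalized reads per kilobase of exon). Ebf3 takes at most 58.6% of a wild-type bar and at least 82.5% of an mfn2-/- bar.

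Per kilobase of exon, the wild-type levels ran from 74.8 ± 26.1 normalized reads for Meox2 and 71.0 ± 20.4 for Twist1 over 61.4 ± 19.4 for Prrx1, 43.9 ± 14.9 for Meox1, 35.8 ± 14.5 for Osr2 and 35.2 ± 7.69 for Ebf3. They continued with 26.3 ± 16.6 for Ebf2, 17.2 ± 1.98 for Ebf1, 15.1 ± 12.9 for Prrx2 and 8.28 ± 5.22 for Twist2. Neighbours in this order did not differ beyond their spread, since each order held in only 2 or 3 of the 4 wild-type libraries. In mfn2-/- cells, Ebf3 had the highest level per kilobase at 38.4 ± 11.3, followed by Prrx1 at 20.2 ± 5.81 and Osr2 at 10.7 ± 3.24. The other 7 factors averaged 4.56 or less. The 10 factors together summed to 1930 ± 196 normalized reads per wild-type library and 678 ± 68.9 per mfn2-/- library, or 0.0467% and 0.0169% of all normalized reads. Prrx1 and Ebf3 made up 42.1% to 60.9% of that sum in wild-type and 81.8% to 88.3% in mfn2-/- libraries.

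Most markers of fibroadipogenic cells and tenocytes were also lower in mfn2-/- libraries. Of 8 fibroadipogenic markers, 6 were called lower and 0 higher, where 6.36% of all genes tested were called lower and 3.99% higher. The marker lists were also chosen with earlier results of these data known, so such counts describe them and test no excess. The summed level of the 8 was 172140 to 239060 normalized reads among wild-type libraries but 1044 to 3276 among mfn2-/- libraries. The collagen Col1a1 led that sum, and Pdgfra, the receptor that defines fibroadipogenic progenitors, went from 2531 to 31.9 normalized reads on average. The markers not called were Dpt (342 and 153) and Ly6a, which was weak in both groups but averaged more in mfn2-/- libraries (11.7 and 34.4). For both of these the groups overlapped. All 7 tenocyte markers were called lower, and their sum was 36449 to 57916 in wild-type and 306 to 407 in mfn2-/- libraries. The part of these cells or transcripts in the fall of the 7 factors was not tested, and in sorted bulk RNA fewer cells of a type and less RNA per cell cannot be told apart. Of 7 endothelial markers 0 were called (sums 998 to 1660 in wild-type and 1194 to 2100 in mfn2-/- libraries), and of 3 tested macrophage markers 0 were called (29.4 to 93.2 and 71.3 to 116). Counts of 0 among so few genes are near the shares over all genes. Neutrophil markers summed to 28.0 normalized reads or fewer in every library, with Ly6g at the floor in all 8. Of 6 tested mural markers, Cspg4 and Pdgfrb were lower (sums 3727 to 4688 and 2069 to 3472), and of 4 tested glial markers Ngfr was lower (555 to 866 and 248 to 452). Of 10 muscle stem cell markers, Myod1, Vcam1 and Sdc4 were higher, 0 were lower and 7 were not called (sums 9861 to 12943 and 24174 to 31068). Sdc4 led that sum, with 4271 and 17473 normalized reads on average, and the median log2 change of the 10 markers was 0.09. Of 7 myofiber markers, Myh1 and Myh4 were higher (sums 1005 to 2773 and 2526 to 3920).

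Set against the sum of the 8 fibroadipogenic markers in the same library, the factors did not differ by the same amount. The log2 ratio of Ebf3 to that sum rose from -9.31 ± 0.12 in wild-type to -2.59 ± 0.71 in mfn2-/- libraries, that of Prrx1 from -8.28 ± 0.25 to -3.24 ± 1.10 and that of Osr2 from -10.7 ± 0.72 to -5.74 ± 1.15. For these 3 factors the lowest mfn2-/- ratio exceeded the highest wild-type ratio (exact permutation p = 0.0286, or 0.0571 adjusted over 10 factors, above the threshold). The marker sum itself was lower in mfn2-/- libraries, by a log2 ratio of means of -6.49. A gene that fell less than the sum has a higher ratio for that reason alone. The permutation p-values of these ratios are therefore no separate evidence about the factors. Prrx2 and Twist2 gave the same p values with ratios higher by 4.36 and 2.14. For Twist1, Meox1, Meox2, Ebf1 and Ebf2 the ratio differed by 1.56, 1.20, 2.16, 2.96 and 1.42 and the groups overlapped (exact permutation p from 0.0857 to 0.343). The size of these ratios depends on the pseudocount where a factor is near 0 reads, and with 0.1 in place of 1 the differences of Twist1, Twist2 and Meox1 were negative. They also depend on the markers summed: without the collagens the difference was 4.10 for Prrx1, 4.00 for Osr2, 5.78 for Ebf3 and 3.41 for Prrx2 (exact permutation, adjusted p = 0.0714 each), and 1.19 for Twist2 (adjusted p = 0.286).

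**Figure D4:**
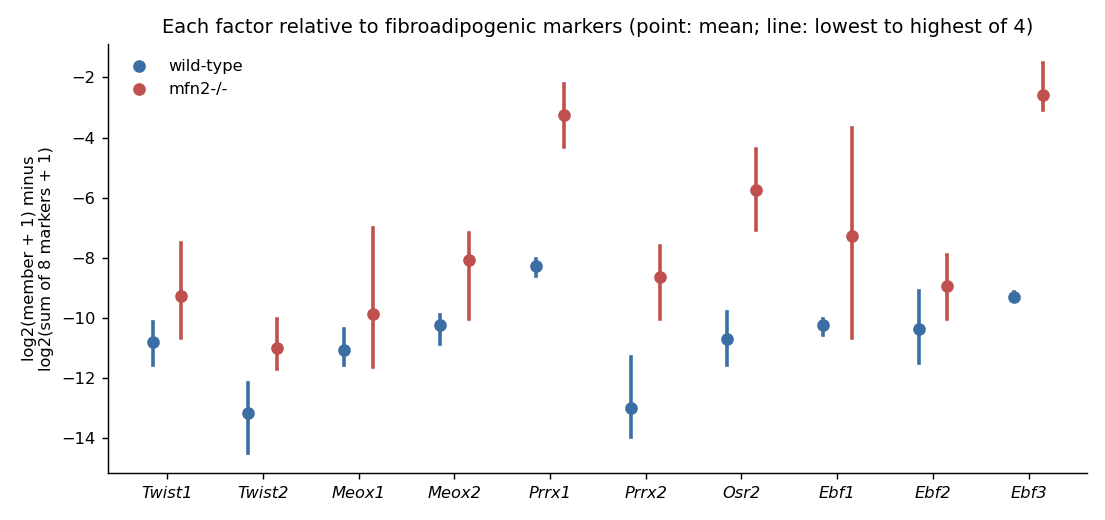
Points give the mean and lines the lowest to highest value over 4 libraries of log2(factor + 1) minus log2(sum of 8 fibroadipogenic markers + 1), in wild-type (blue) and mfn2-/- (red) libraries. The red line lies wholly above the blue line for Twist2, Prrx1, Prrx2, Osr2 and Ebf3.

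Other transcription factors of connective tissue were read from a list of 56 genes, 46 of which were tested. Of these, 6 were lower and 3 higher, with a median log2 change of -0.75, where 6.36% of all genes tested were lower and 3.99% higher. This list too was chosen with earlier results of these data known, so its counts are descriptions. The lower ones with a mean of at least 100 and the largest changes were Mkx (304 ± 78.9 to 9.61 ± 7.45 normalized reads, log2 change -5.13, limma adjusted p 0.000558) and Scx (173 ± 29.5 to 39.7 ± 37.4, -2.68, adjusted p 0.0369), both tendon factors, Creb3l1, a factor of collagen-secreting cells (357 ± 57.0 to 34.5 ± 12.1, -3.39), and the zinc finger gene Tshz2 (751 ± 165 to 323 ± 125, -1.26). Mkx and Scx are also among the 7 tenocyte markers above and are counted in both lists. Mkx, Scx and Creb3l1 averaged under 100 in mfn2-/- cells and reached that mean only through the wild-type libraries. Nfix (-0.99) and Pitx1 (0 reads in mfn2-/- libraries) were also lower. The higher ones were Runx1, a factor of blood and of injured muscle (1013 ± 424 to 4140 ± 682, 2.12), Cebpb (1139 ± 282 to 2465 ± 225, 1.14) and the cartilage factor Sox9 (475 ± 149 to 962 ± 320, 1.00, with overlapping groups). The calls of Mkx, Creb3l1, Tshz2, Nfix, Runx1 and Cebpb held without any single library. That of Scx was lost in 7 of 8 such fits, all but the one without mfn2-/- replicate 4 (adjusted p up to 0.112). That of Sox9 was lost in 6, all but those without wild-type replicate 1 or mfn2-/- replicate 4 (up to 0.142), and that of Pitx1 in 5, without wild-type replicates 2 or 3 or mfn2-/- replicates 1, 2 or 3 (up to 0.0867).

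A second list of 15 genes, called partners and cofactors, held relatives, partners and cofactors of these factors and the Id genes, whose products bind E proteins. It was also chosen with earlier results of these data known. Of the 15, 11 were tested, 1 lower and 2 higher, with a median log2 change of -0.04, beside the same 6.36% and 3.99% of all genes. Zfp423, an EBF-binding factor of fat cell precursors, was lower (323 ± 127 to 65.2 ± 17.6 normalized reads, log2 change -2.24, limma adjusted p 0.00238), and the call held without any single library (adjusted p up to 0.0133). Its relative Zfp521 had a log2 difference of -0.92 and was not called (limma adjusted p 0.0567). The E protein genes Tcf3, Tcf4 and Tcf12, partners of TWIST, had log2 differences of -0.04, -0.59 and -0.30 and were not called. Id2 (47.3 ± 30.6 to 198 ± 87.0, 2.18, adjusted p 0.0297) and Id3 (322 ± 68.7 to 912 ± 478, 1.37, adjusted p 0.0209), which bind E proteins and lack a DNA-binding region, were higher. The Id2 call failed on leaving out wild-type replicate 1 or 2 or mfn2-/- replicate 1, 2 or 4, and the Id3 call without wild-type replicate 3 or 4 or mfn2-/- replicate 1 or 2 (adjusted p up to 0.0900 and 0.0658). The Id3 change was 2.29 among Y-positive and 0.45 among Y-negative libraries.

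**Figure D5:**
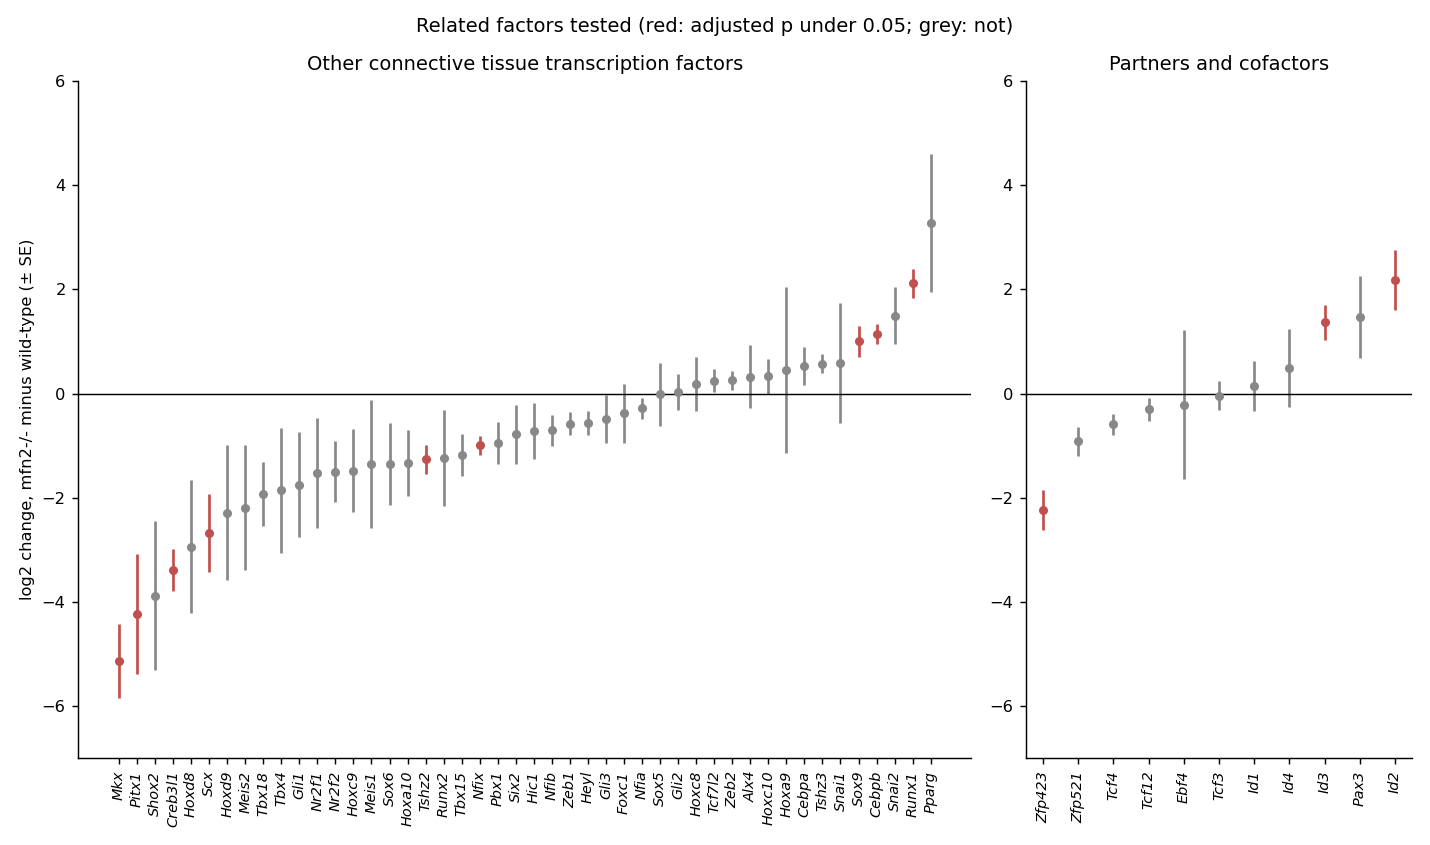
Points give the limma log2 change (mfn2-/- minus wild-type) and bars its SE for the 46 tested genes of the connective tissue list (left) and the 11 tested partners and cofactors (right), sorted by change. Red marks an adjusted p under 0.05, with 6 lower and 3 higher genes at left and 1 lower and 2 higher at right.

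Whether Y-positive and Y-negative libraries differed in the genotype change was tested with an interaction term in limma. It had an adjusted p under 0.05 for 0 of the 10 factors and an unadjusted p under 0.05 for 3, where 12.0% of all genes tested had one. These 3 were Prrx1 (limma adjusted p 0.167), Ebf2 (0.295) and Twist1 (0.404). For all 9 factors with a negative change the direction was the same in both kinds of library. This follows from the lack of overlap between the groups for these 9 factors and is no further check.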

How the data were processed

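The deposited table holds a signal per gene, the normalized read counts of the authors on a linear scale, in 1 column per library. The submitters' processing notes name Trim Galore, HISAT2, featureCounts, DESeq2 and the build mm9, with no versions. Every value was a whole multiple (within 0.02 of a step) of the smallest in its column (100%), so the authors had divided each library by 1 size factor, and whole reads were recovered. Coordinates are those of GENCODE M21 (GRCm38), since the table has none. An annotated gene lies on the opposite strand within the bounds of 6 of the 10 factors, and the strand setting of the counting is not given in the sources used here.

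The 11754 genes averaging 10 normalized reads or more were transformed as log2(value + 1). The linear model of limma 3.58.1 (R 4.3.3) compared the genotypes without further terms, letting the prior variance follow the mean level. Its two-sided p-values were adjusted by Benjamini-Hochberg over these genes, with a threshold of 0.05. Changes are differences of mean log2(value + 1), so for genes near 0 reads they depend on the pseudocount and can differ either way from the ratio of means. For ratios, the 70 arrangements of the libraries gave a two-sided exact permutation test (scipy 1.17.1, Python 3.11.15). The shallowest libraries, with 1880464 reads (wild-type replicate 1) and 2269009 reads (mfn2-/- replicate 4), were the least precise. The alternatives were other pseudocounts, filters and scalings, a replicate block, a term for Y-linked reads, no trend, each library left out, and, for recovered reads, DESeq2 1.42.0 and the quasi-likelihood test of edgeR 4.0.16 with TMM scaling. Over all genes, 1217 were called with limma, 1158 with edgeR and 1738 with DESeq2. On simulated counts over 11326 genes, 200 of them changed by a log2 change of 2 between wild-type and mfn2-/- libraries, limma recovered 37.0%, edgeR 33.5% and DESeq2 55.0%, and 1.33%, 4.29% and 29.0% of their calls were false. The members and lists were chosen with earlier results of these data known. Named genes were all 10 members, Mfn2, and from the other lists the called genes with a mean of at least 100, up to 4 in each direction. Nfix, Pitx1, Zfp521, the E protein genes and single marker genes were named after their values were seen. The 10 factors were chosen by name, and the list genes Foxf1 and Adgre1 were found under older symbols. Replicate numbers did not pair the samples.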

Additional observations from a re-analysis of the deposited data

Results flagged for a closer look

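In 21 groups of 4 values for the 10 factors and Mfn2, the gap between an end value and its neighbour, as a share of the range, was past Dixon's 95% limit in 3, where chance gives about 1 in 20. Meox1 stood at 11.8 normalized reads in mfn2-/- replicate 3, against 0.790 or less in the other mfn2-/- libraries. Prrx2 stood at 67.4 in wild-type replicate 2, while the rest of its group held 13.4 to 19.6, and at 0 in mfn2-/- replicate 4, against 7.37 to 8.67 in the others. The mfn2-/- replicate 4 also had no read for Twist1, Twist2, Meox1, Meox2 and Ebf2, yet gave the highest mfn2-/- value of Ebf1, 80.6.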

How the results depend on the processing

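Twist1, Meox1, Prrx1 and Ebf2 were called lower under all 19 alternatives, and Prrx2, Ebf3 and Mfn2 under none. With a mean of at least 50, Twist2 and Prrx2 were not tested. The samples share only a number: deviations of same-numbered libraries correlated at -0.111 to 0.0383, and with the replicate block Twist2 (-4.49) missed the threshold at adjusted p 0.0526, leaving 6 factors called. Meox2 missed it with a pseudocount of 0.1 (-5.36), and Ebf1 with that pseudocount (-4.53), no filter or no trend (both -3.67), quantile scaling (-3.47) and edgeR (-2.58). Osr2 passed with a mean of at least 50 (-1.68) and DESeq2 (-1.75). Of the other connective tissue factors, 1 (no trend) or 5 (DESeq2) were called higher. Partners called lower were 2 with a pseudocount of 10, a mean of at least 50, quantile scaling or DESeq2 and 3 with the term for Y-linked reads, and 0 were higher with no trend. Leaving out each library gave ranges of -5.86 to -4.48 for Twist1, -6.28 to -5.05 for Meox1, -1.76 to -1.42 for Prrx1, -5.78 to -4.52 for Ebf2, -5.00 to -4.16 for Twist2, -4.94 to -3.49 for Meox2, -1.91 to -1.45 for Osr2, -4.54 to -2.43 for Ebf1 and -0.046 to 0.33 for Ebf3, with 4 (without wild-type replicate 3 or 4) to 8 (without mfn2-/- replicate 4) factors lower, 1 to 2 partners lower and 0 (without mfn2-/- replicate 1 or 2) to 2 higher. The difference in log2 ratio turned sign for Twist1 to Twist2 with a pseudocount of 0.1 (0.95), and for Meox1 to Meox2 (0.14) and Prrx1 to Prrx2 (-0.37) with 10. With a library left out it ran from -1.37 to 0.10 for Twist1 to Twist2, -0.12 to 1.08 for Prrx1 to Prrx2, -0.023 to 2.53 for Ebf1 to Ebf2, -4.62 to -2.75 for Ebf1 to Ebf3 and -5.82 to -4.59 for Ebf2 to Ebf3. A pseudocount of 0.1 gave -4.63 for Ebf1 to Ebf3 and -6.35 for Ebf2 to Ebf3. Against the fibroadipogenic sum, a pseudocount of 0.1 gave -0.15 for Twist1, -1.11 for Twist2 and -0.72 for Meox1. Without the collagens in the sum, all 10 differences were smaller and still positive, at 0.61 for Twist1, 0.25 for Meox1, 1.21 for Meox2, 2.01 for Ebf1 and 0.47 for Ebf2. Leaving out mfn2-/- replicate 3 gave 0.24 for Meox1 and 4.09 for Ebf1, and leaving out mfn2-/- replicate 4 gave 1.76 for Ebf1. The fall of the marker sum by itself raises the ratio of any gene that fell less. With a pseudocount of 10, all 10 factors passed (exact permutation, adjusted p = 0.0286), at 3.54 for Twist1, 4.90 for Twist2, 3.56 for Meox1, 3.42 for Meox2, 5.08 for Prrx1, 5.45 for Prrx2, 5.15 for Osr2, 4.02 for Ebf1, 3.13 for Ebf2 and 6.72 for Ebf3. These ratio differences shifted with the pseudocount, the markers summed and the library left out, so their size and their passing depend on the setting. Quantile scaling moved the median log2 change of all genes from -0.16 to 0.07. Calls over all genes numbered 1217, 670 when wild-type replicate 3 and 1307 when mfn2-/- replicate 4 was left out (the lowest and highest of 8 such fits), and 633 with no trend, 17.9% of them higher against 38.5% otherwise. In the shallowest mfn2-/- library, a count of 0 allows up to 5.50 normalized reads.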

Other observations

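For each factor that fell, the genes with a mean of at least 100 normalized reads whose log2 values followed it most closely over the 8 libraries were listed among 5583 candidates. These correlations are descriptions, since all 8 libraries share the contrast of genotypes that separates them. Twist1 was followed by Clec3b (Pearson's r = 0.996), the elastic fiber gene Fbln5 (0.993) and Tbc1d8b (0.993), and Twist2 by Naalad2 (0.978), Fkbp9 (0.976) and Cttn (0.974). Meox1 was followed by Sema3d (0.988), Commd8 (0.988) and Zfp185 (0.986), and Meox2 by the chemokine gene Cxcl14 (0.992), Leprel2 (0.991) and Stt3a (0.990). Prrx1 was followed by the cytoskeletal gene Lasp1 (0.995), Hapln1 (0.973) and Nucb1 (0.973). For Ebf1 the closest were Srgap3 (0.979), Lrrk1 (0.970) and Fam176b (0.969), and for Ebf2 the chemokine gene Ccl11 (0.990), Pcdhgb5 (0.987) and Slc4a4 (0.981).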
